A study of Mus musculus with 4 samples.

Results

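The pancreatic lipase cluster (Pnlip, Pnliprp1 and Pnliprp2) and the carboxyl ester lipase gene Cel were examined for binding of the transcription factors Ptf1a and c-Myc in mouse pancreas. Their peaks were taken as those whose midpoint lay in chr19:58700000-58900000, the 200 kb window given for the cluster, or in chr2:28370000-28450000, the 80 kb window given for Cel, on the mouse build mm9. The windows held 34 of 17632 Ptf1a peaks (22 in the lipase window and 12 in the Cel window) and 10 of 5464 Myc peaks (7 and 3). That makes 44 of the 23096 peaks in the deposited lists. All animals were Ela1-myc mice aged 8 weeks, in which the elastase 1 promoter, active in acinar cells, drives a Myc transgene, so that both libraries came from tissue carrying the transgene. Chromatin immunoprecipitation and sequencing (ChIP-seq) was done on whole pancreas. Ptf1a was precipitated from 1 mouse and the Myc library was made from DNA pooled over 3 mice. The Ptf1a input pooled 5 animals, including the 1 used for the precipitation, and the Myc input used the same 3 animals as its library. The inputs were not analysed here. Because only 1 library was made per factor, no replicate error can be given and nothing was tested between factors or windows.

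The pancreatic lipases are digestive enzymes that acinar cells make in bulk, store in zymogen granules and secrete into the gut. Pnlip encodes the triglyceride lipase that works with its cofactor colipase to cleave dietary fat. Pnliprp1 is a close relative with little known lipase activity, and Pnliprp2 cleaves galactolipids and phospholipids as well as triglycerides and serves fat digestion in suckling mice. Cel, the bile salt-stimulated lipase, belongs to another enzyme family and cleaves cholesteryl esters, vitamin esters and triglycerides. Ptf1a is a basic helix-loop-helix factor that, with an E protein and Rbpjl or Rbpj, forms the PTF1 complex of acinar cells, which binds an E-box next to a TC-box. Myc, also a basic helix-loop-helix factor, binds DNA with its partner Max, with a preference for the E-box CACGTG, and drives growth.

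In the RefSeq table of GRCm38.p6 the 3 lipase genes follow one another on chromosome 19 in the order Pnlip, Pnliprp1, Pnliprp2, all on the plus strand. The non-coding genes 1810035K13Rik and 1810018F18Rik stand between Pnlip and Pnliprp1. The nearest protein-coding neighbours are Ccdc172 on one side and 1700019N19Rik on the other. Cel lies on the minus strand of chromosome 2 between Ralgds and Gtf3c5. The peaks are on mm9 and the gene table is on another build, so peaks were not assigned to single genes, promoters, exons or introns. Whether the windows hold the whole of each gene, or parts of the neighbours, was not tested.

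The 250 bases before the start of each of the 4 genes are shown because both factors read E-boxes, and because the genes differ in how many of these letters stand near their start. The sequences are from RefSeq (GRCm38.p6), read 5′ to 3′ on the strand of the gene. Capitals mark E-boxes (CANNTG, a palindromic pattern that covers both strands) and the TC-box (TTTCCC, or GGGAAA for the other strand).
Pnlip: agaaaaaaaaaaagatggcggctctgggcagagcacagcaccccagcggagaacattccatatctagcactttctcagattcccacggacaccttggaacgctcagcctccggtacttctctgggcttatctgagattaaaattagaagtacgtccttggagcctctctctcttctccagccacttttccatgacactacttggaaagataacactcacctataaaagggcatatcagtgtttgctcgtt
Pnliprp1: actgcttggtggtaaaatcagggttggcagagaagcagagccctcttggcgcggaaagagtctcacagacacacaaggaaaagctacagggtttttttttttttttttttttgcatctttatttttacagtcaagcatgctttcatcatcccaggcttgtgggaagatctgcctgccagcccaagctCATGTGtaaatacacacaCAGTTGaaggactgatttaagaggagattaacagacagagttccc
Pnliprp2: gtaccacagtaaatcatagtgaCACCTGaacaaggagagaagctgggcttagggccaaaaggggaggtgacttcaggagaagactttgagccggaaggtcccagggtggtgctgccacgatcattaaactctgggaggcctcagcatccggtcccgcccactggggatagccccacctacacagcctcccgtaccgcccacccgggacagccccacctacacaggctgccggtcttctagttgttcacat
Cel: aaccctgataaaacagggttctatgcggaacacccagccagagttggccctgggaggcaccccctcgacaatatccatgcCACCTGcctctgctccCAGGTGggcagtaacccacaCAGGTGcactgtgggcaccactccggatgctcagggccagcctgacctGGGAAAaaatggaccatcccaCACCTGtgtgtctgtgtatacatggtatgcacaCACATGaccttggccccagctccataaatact

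Cel held 5 E-boxes and 1 TC-box before its start, while Pnlip held neither. Pnliprp1 had 2 E-boxes, CATGTG and CAGTTG, whose first bases lay at -63 and -45 from the start, and Pnliprp2 had 1, CACCTG at -228. In Cel the boxes were CACCTG at -170, CAGGTG at -154 and -134, GGGAAA at -86, CACCTG at -65 and CACATG at -32. The TC-box of Cel stood 15 bases from the E-box at -65. It was the only one of the 4 genes with both boxes at a gap of 2 to 25 bases, an arrangement found in 4.28% of the 32851 promoter stretches of the same length in the table. An E-box of any kind was found in 66.2% of these stretches and a TC-box in 21.9%. The Myc-type box CACGTG, present in 6.02%, and CAGCTG, present in 13.0%, were in none of the 4. A match describes letters only, and a missing match says nothing of binding elsewhere.

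Of other genes in fat digestion and the lipase superfamily, 3 of 6 were in the promoter table: Pla2g1b, which encodes a pancreatic phospholipase, Lipf, which encodes gastric lipase, and Lipc, which encodes hepatic lipase. An E-box stood before 2 of these 3 genes and a TC-box before none. Of 11 other genes for acinar enzymes, 10 were in the table. All 10 had an E-box, 6 had a TC-box, and 4 had both at the stated gap: the elastase gene Cela1, the chymotrypsinogen gene Ctrb1, the trypsinogen gene Prss1 and the carboxypeptidase gene Cpa1. Cel had this arrangement in common with those 4, and the 3 genes of the lipase cluster did not. For Lipc, which has 2 starts in the table, a match before either was counted.

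**Figure D1:**
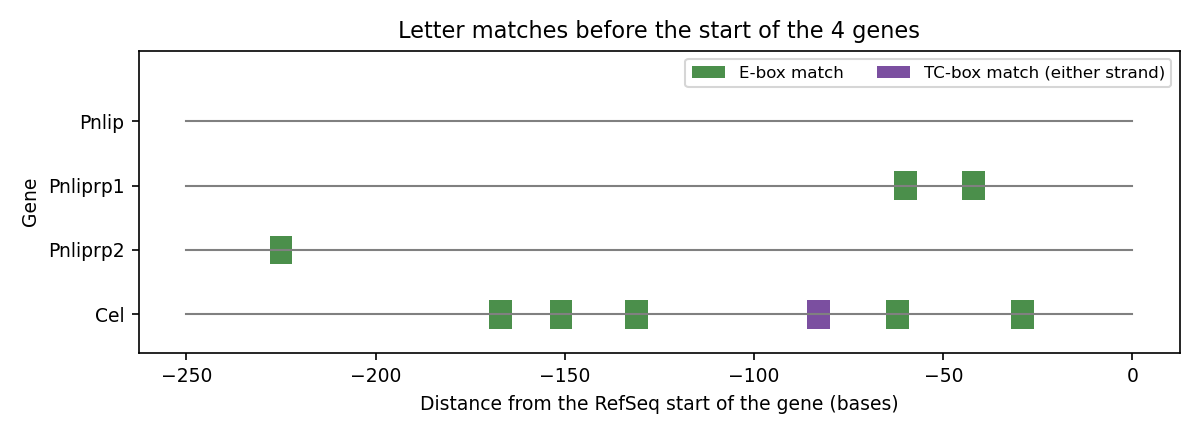
Positions of E-box and TC-box letter matches (coloured blocks) in the 250 bases before the start of the 4 genes, with the distance from the RefSeq start on the horizontal axis. Cel has 5 E-boxes and 1 TC-box, Pnliprp1 2 E-boxes, Pnliprp2 1 E-box and Pnlip none.

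The lipase window was crowded with Ptf1a peaks. It held 22, or 11.0 per 100 kb, and 7 Myc peaks, or 3.50 per 100 kb. When the chromosomes were divided into 12800 stretches of 200 kb, on a grid that includes the window itself, the mean was 1.38 Ptf1a and 0.427 Myc peaks per stretch. At least as many Ptf1a peaks were found in 4 stretches (0.0312%), 2 of them with more. At least as many Myc peaks were found in 31 (0.242%), 18 of them with more, and at least as many of both in 3. The Cel window held 12 Ptf1a peaks, or 15.0 per 100 kb, and 3 Myc peaks, or 3.75 per 100 kb. Among 31977 stretches of 80 kb, 22 (0.0688%) held at least as many Ptf1a peaks, 12 of them more. At least as many Myc peaks were found in 345 (1.08%), 120 of them with more, and at least as many of both in 12. The windows were set with the peaks known, so these shares place them among other stretches and are not a test.

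Each peak has a score given by the authors' peak caller. Its scale is not stated, it does not fall below 50 in the Myc list or 50.01 in the Ptf1a list, and it was compared only within a list. A higher score cannot tell occupancy in more cells from stronger occupancy in each cell. Neither list gives read counts, so depth is unknown and a site without a peak may have been missed.

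Ptf1a peaks along the lipase window scored from 51.32 to 3100, in a list that runs from 50.01 to 3195.56. Reading along the chromosome, the scores of the 22 peaks were 459.53, 1506.59, 1901.2, 60.07, 446.49, 133.27, 363.74, 70.82, 3100, 788.95 and 262.92 over the first 11, and 2233.86, 103.89, 87.17, 51.32, 90.38, 58.12, 896.8, 685.39, 1424.11, 231.5 and 149.93 over the last 11. Weak peaks stood beside strong ones in the first part, and in the second 5 weak peaks in a row lay between the peak at 2233.86 and 3 strong peaks. The median score was 313, against 116 in the whole list, and the median of the peaks' percentiles in the list was 78.2. Of the 22 peaks, 8 were in the top 10% of the Ptf1a list by score. Scores were at or above 100 in 16 of 22 peaks (72.7%), against 56.6% of the list. Peaks in the window were also wide, with a median of 685 bp against 515 bp. Set against peaks of similar width (the same of 5 equal parts of the list by width), the median percentile was 59.2.

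The strongest Ptf1a peak of the cluster lay at chr19:58770490-58771278 with a score of 3100. That score was shared by 13 peaks of the list and exceeded by 2, so its rank of 3 is a tie. Whether 3100 is a fixed value given to very high scores was not tested. Peaks with that score cannot be ordered by it, and it may not measure how strong they are. The next was chr19:58801714-58803819, with a score of 2233.86 (rank 48). At 2106 bp it was the widest Ptf1a peak in either window and wider than 99.9% of the list. The peaks at chr19:58740955-58741962 (score 1901.2, rank 95), chr19:58724396-58725171 (score 1506.59, rank 239) and chr19:58833226-58834476 (score 1424.11, rank 289) followed. After these 5 there was a gap in score to chr19:58821713-58822653 (score 896.8, rank 884), chr19:58772801-58773628 (score 788.95, rank 1128) and chr19:58826913-58827597 (score 685.39, rank 1403). These are the 8 peaks in the top 10% of the list.

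The Ptf1a peaks stood in groups. When peaks at most 12500 bp apart were joined into chains, a chain of 9 peaks spanned 35.5 kb (chr19:58740955-58776493) and another of 9 spanned 32.8 kb (chr19:58801714-58834476). A pair lay before them (chr19:58718915-58725171), and the last peaks of the window, at chr19:58853455-58854039 and chr19:58896687-58897260, stood alone. Of the 11166 chains and single peaks in the Ptf1a list, 47 (0.421%) held 9 or more peaks. The median score was 363.74 in the first chain of 9 and 103.89 in the second, which held more weak peaks between its strong ends. The division depends on the joining distance: the largest chain held 5 peaks at 5 kb and 16 at 25 kb. The 16 include 5 peaks outside the window on the left, and the chains of 9 were still apart at 25 kb.

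The Myc peaks of the lipase window were strong for their list. In map order their scores were 214.41, 204.71, 62.86, 120.36, 338.41, 100.1 and 106.75. All but the third lay above the list's median of 75.2, and 6 of 7 (85.7%) scored 100 or more, against 28.7% of the list. The top 10% of the Myc list by score (546 of 5464 peaks, or 9.99%) included 3 of the 7. The peak at chr19:58801930-58803861 had rank 52, that at chr19:58723783-58725026 rank 210 and that at chr19:58740898-58741682 rank 257. The others were at chr19:58770395-58771510 (rank 1053), chr19:58807405-58808270 (rank 1347), chr19:58805989-58806793 (rank 1568) and chr19:58769552-58770314 (rank 3736).

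**Figure D2:**
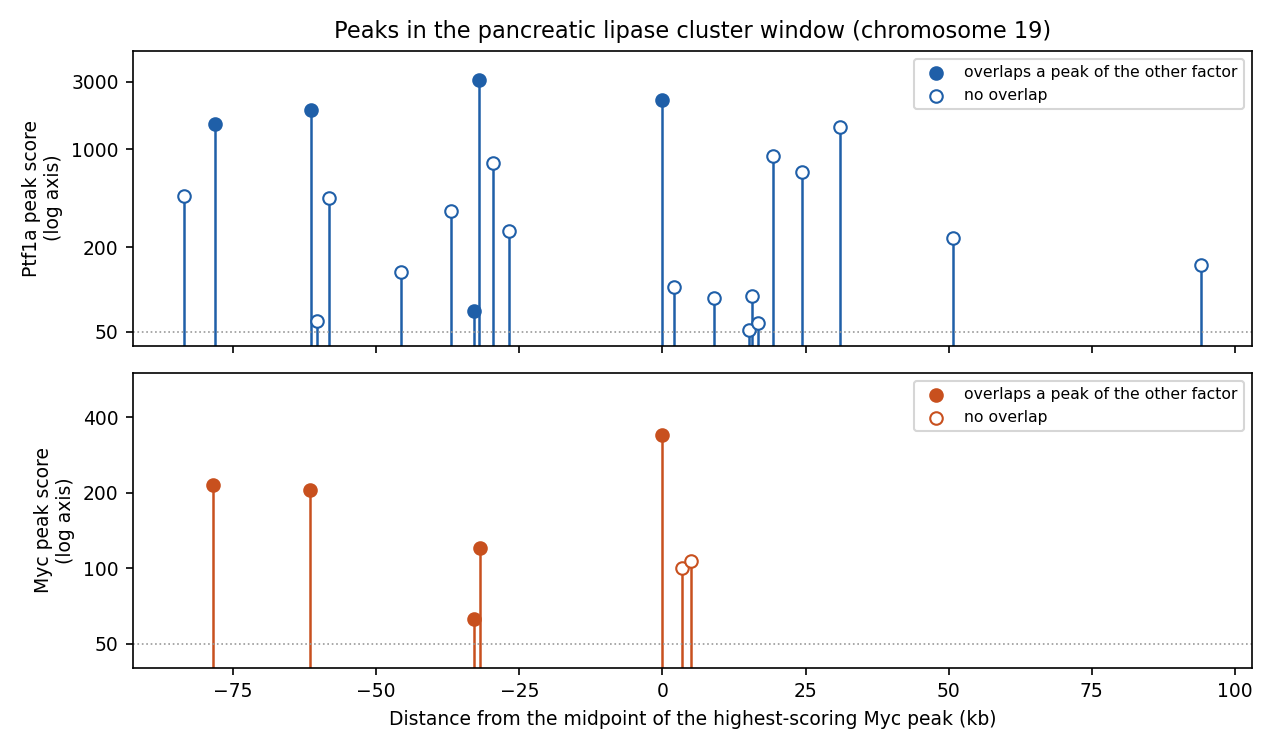
Scores of the 22 Ptf1a peaks (top) and 7 Myc peaks (bottom) of the lipase window on log axes, against the distance in kb of each peak's midpoint from that of the highest-scoring Myc peak. Filled points overlap a peak of the other factor, open points do not, and the dotted line is at 50. The filled Ptf1a points include the 4 highest scores, and no Myc peak lies beyond the group at 0 to the right.

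In the lipase window Myc peaks lay mostly on Ptf1a peaks. Shared here means an overlap of 1 bp or more with any peak of the other factor. Of the 7 Myc peaks, 5 were shared (71.4%, exact binomial 95% interval 29.0 to 96.3%), against 41.4% of the Myc list. Such an interval covers counting error only. It treats peaks as independent, though many stand close together, so it is a description and not a test. Of the 22 Ptf1a peaks, 5 were shared (22.7%, interval 7.82 to 45.4%), against 13.4% of the Ptf1a list. Both intervals include the share of the whole list. The 5 shared Ptf1a peaks were the 4 with the highest scores in the window and, in contrast, 1 weak peak at chr19:58769824-58770279 with a score of 70.82, whose end was 210 bp from the start of the peak scoring 3100. The next in order of score, at 1424.11, had no Myc peak, and the nearest one was 24955 bp away.

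The Myc peaks did not extend over the whole window, a division drawn after the values were seen. No Myc peak of the window lay to the right of chr19:58808270, where 9 Ptf1a peaks were found over 85.5 kb. Their scores ran from 51.32 to 1424.11 with a median of 149.93, and 3 of them were in the top 10% of the list. To the left of that point, 13 Ptf1a peaks over 86.3 kb ran from 60.07 to 3100 with a median of 446.49, and 5 were in the top 10%. The Myc peaks without a Ptf1a partner, at chr19:58805989-58806793 and chr19:58807405-58808270, were the last 2 in map order. The first of them stood 755 bp from the nearest Ptf1a peak and the second 2.17 kb.

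Around Cel the Ptf1a peaks were dense, and their scores also covered a wide range. In map order the 12 scores were 795.85, 244.92, 181.1, 50.24, 1464.63, 222.54, 112.87, 55.09, 58.53, 72.26, 1201.23 and 691.58. The median score was 202 and the median percentile in the list 68.03. Of the 12 peaks, 8 (66.7%) scored 100 or more, against 72.7% in the lipase window and 56.6% of the list, and 4 were in the top 10%. Among peaks of similar width the median percentile was 49.3. The highest peaks were chr2:28418745-28419371 (score 1464.63, rank 266), chr2:28430697-28431438 (score 1201.23, rank 447), chr2:28376843-28377419 (score 795.85, rank 1110) and chr2:28431523-28432309 (score 691.58, rank 1386). The lowest, chr2:28414184-28414526 with a score of 50.24, had rank 17587 of 17632.

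A chain of 10 Ptf1a peaks covered chr2:28410138-28432309, or 22.2 kb, a size reached by 29 of 11166 chains and single peaks (0.260%). Within it 6 peaks were packed into 4.72 kb (chr2:28418745-28423461), with scores falling from 1464.63 at the first to between 55.09 and 222.54 at the other 5. The other peaks of the window, chr2:28376843-28377419 and chr2:28379068-28379681 (score 244.92), formed a pair apart from the chain. The 5 weaker of the packed peaks were at chr2:28419722-28420298, chr2:28420346-28420943, chr2:28421532-28421893, chr2:28421991-28422433 and chr2:28423061-28423461. The chain began with chr2:28410138-28411108, which scored 181.1 and at 971 bp was the widest peak near Cel.

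The 3 Myc peaks near Cel were among the weaker ones of their list. Their scores were 50.03 at chr2:28418665-28419263, 75.05 at chr2:28430672-28431400 and 52.61 at chr2:28440967-28441852. The first had rank 5461 of 5464, next to the floor of the list, and the second sat at the list's middle (rank 2741). None reached 100, while 6 of 7 Myc peaks in the lipase window did. The scores of the windows overlapped in range only through the lipase peak at 62.86. With 1 library this contrast between the loci has no replicate check.

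**Figure D3:**
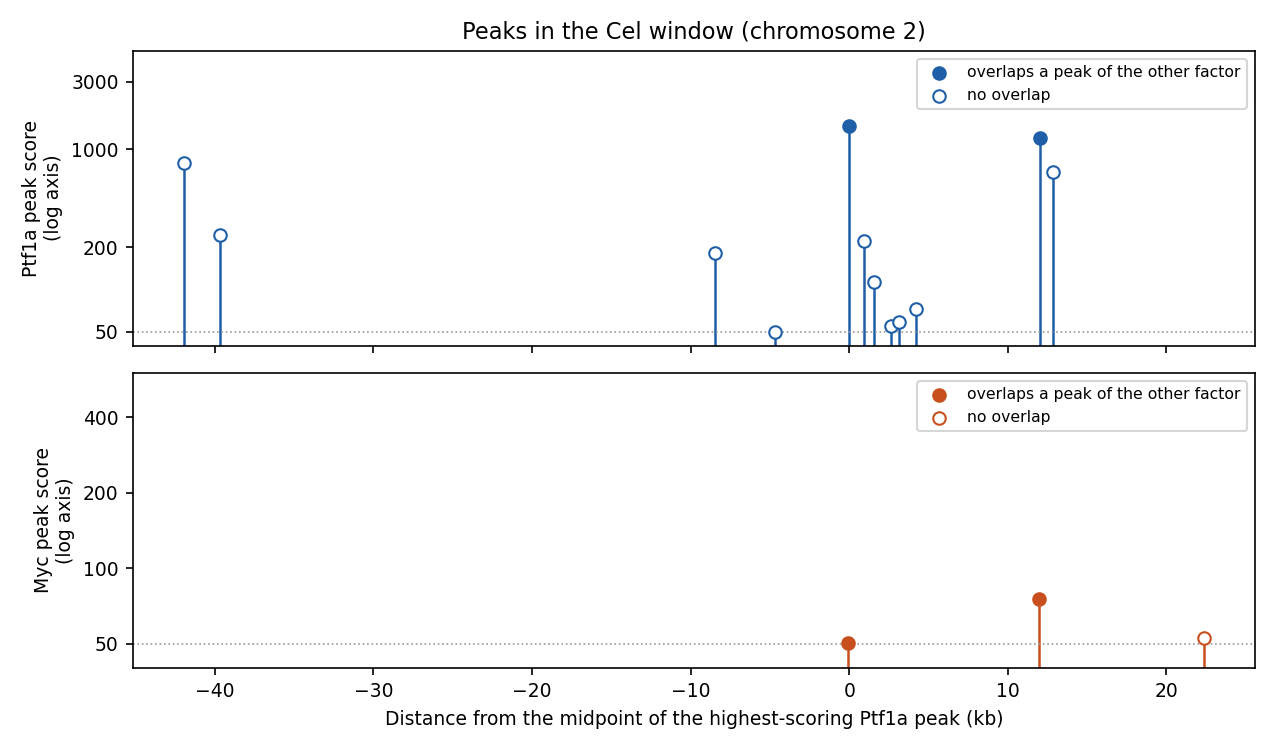
Scores of the 12 Ptf1a peaks (top) and 3 Myc peaks (bottom) of the Cel window on log axes, against the distance in kb from the midpoint of the highest-scoring Ptf1a peak. Filled points overlap a peak of the other factor and the dotted line is at 50. The filled Ptf1a points are the highest 2, at 1464.63 and 1201.23, and all Myc points lie between 50.03 and 75.05.

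Weak as they were, 2 of the 3 Myc peaks near Cel overlapped a Ptf1a peak, and their partners were the 2 strongest Ptf1a peaks of that window. The interval for the Myc share is 9.43 to 99.2% and that for the Ptf1a share (2 of 12, 16.7%) is 2.09 to 48.4%, and both include the share of the whole list. The third Myc peak was 8.66 kb from the nearest Ptf1a peak. Over both windows, 6 of the 12 Ptf1a peaks in the top 10% of the list were shared, against 28.5% of all Ptf1a peaks in that class. All 3 Myc peaks in the top 10% were shared, against 50.5% of all Myc peaks in that class. Both counts rest on few peaks and were not tested. Among the remaining Ptf1a peaks of the windows, the 70.82 peak was the only shared one. Over the whole Ptf1a list 13.4% of peaks were shared, and the share without the top 10% was not computed. Partners were not in the same order of score in both lists: the Ptf1a peak at 3100 had a Myc partner of 120.36, that at 2233.86 one of 338.41, and that at 1464.63 one of 50.03.

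**Figure D4:**
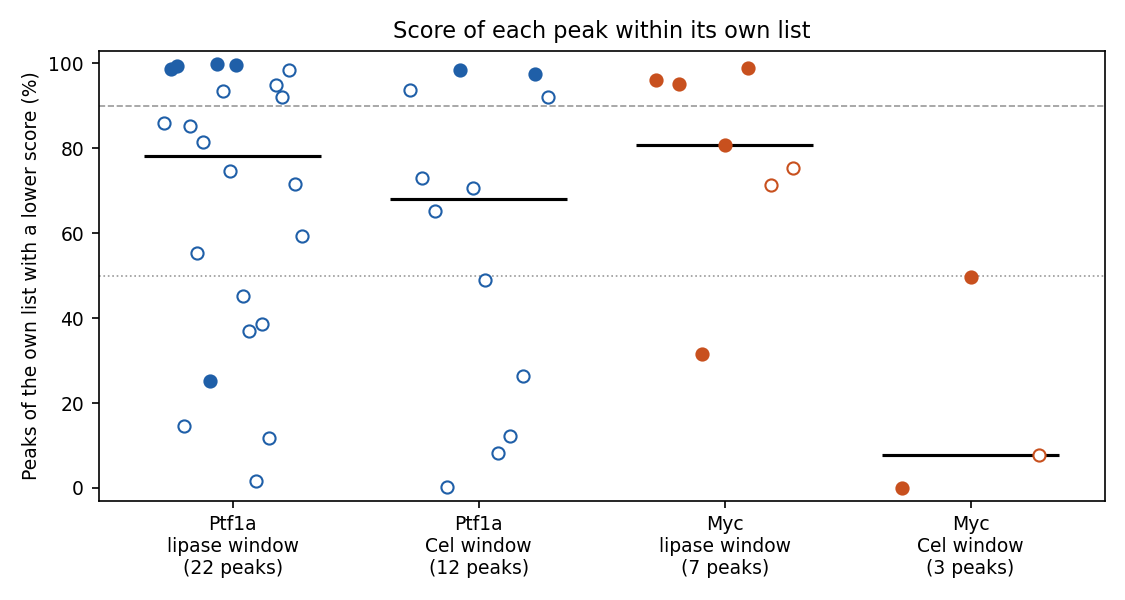
Share of each list's peaks (%) that score lower than each peak of the windows, by factor and window, with peaks in map order within a column. Filled points are shared, black lines are medians (78.2, 68.03, 80.7 and 7.80%), and the dashed and dotted lines are at 90 and 50. The Myc peaks of the Cel window sit at or below the middle of their list.

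The midpoints of the 7 overlapping pairs lay about as close as those of other pairs. The distance between midpoints ranged from 31.5 to 379 bp with a median of 118.5 bp, beside a median of 109.5 bp over all 2368 pairs of the lists. The closest pair was the second at Cel, where the Myc peak of 729 bp and the Ptf1a peak of 742 bp had midpoints 31.5 bp apart. The farthest was the first of the lipase window, whose Myc peak of 1244 bp reached 613 bp past the left end of the Ptf1a peak. In every pair at least 81.3% of the narrower peak was covered, with a median of 96.6% against 100% over all pairs. The narrower peak lay wholly inside the wider one in 2 of the 7 pairs and in 1309 of the 2368. The Myc peak was the wider partner in 3 of 7 pairs (42.9%), against 83.1% of all pairs. The Ptf1a peak was the wider one in the lipase pairs with Ptf1a scores of 1901.2 and 2233.86 and in both pairs at Cel.

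**Figure D5:**
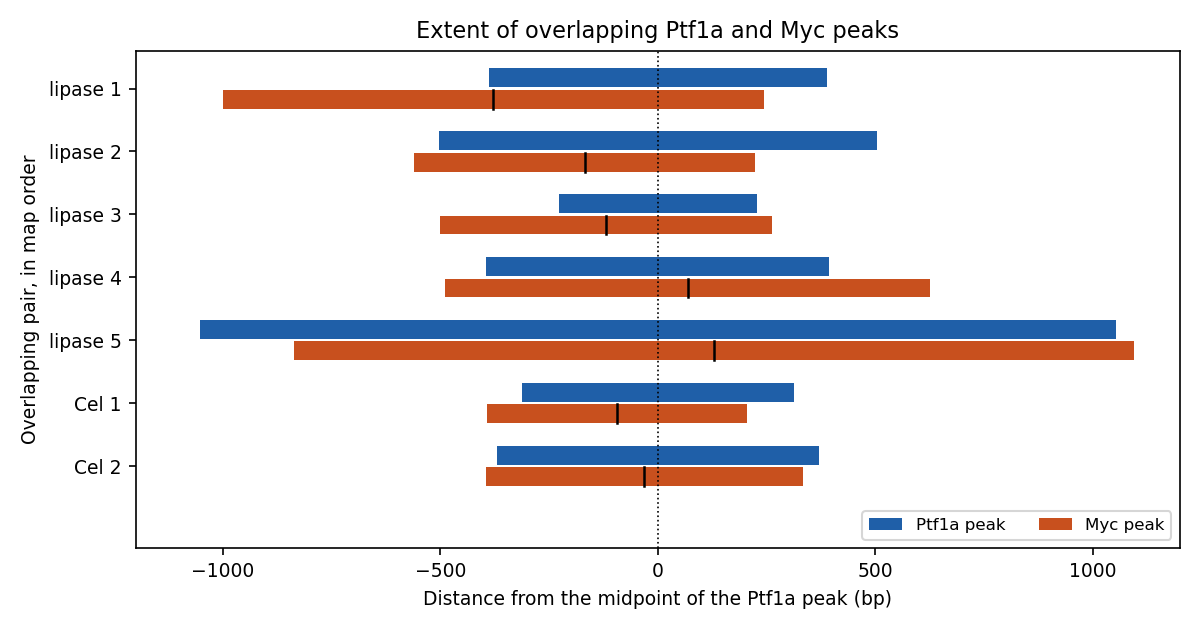
Extent of the 7 overlapping pairs, 5 in the lipase window and 2 in the Cel window, in bp from the midpoint of the Ptf1a peak. Bars show the whole peaks and black ticks the midpoint of the Myc peak, which lies from 379 bp to the left to 129 bp to the right.

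The limits of the lipase window had further peaks just outside on the left. The last Ptf1a peak outside, chr19:58694975-58695611 (score 229.83), had its midpoint 4.71 kb from the edge, and the first inside, chr19:58718915-58719704 (score 459.53), was 19.3 kb from it. The outer peak overlapped a Myc peak of score 54.1. It belonged to a chain of 5 Ptf1a peaks that included chr19:58686980-58687830, another peak at 3100, which was not shared. On the right the last Ptf1a peak inside scored 149.93 and the next outside, at 465.6, was 457 kb from the edge. At the Cel window the nearest Ptf1a peaks outside were shared on the left (chr2:28335381-28336000, score 479.8) and not shared on the right (chr2:28464532-28464965, score 151.54), against 795.85 and 691.58 for the first and last peaks inside. The nearest Myc peaks outside scored 60.07 on the left and 92.9 on the right of the Cel window, and both were shared. On the right of the lipase window the next Myc peak, with a score of 65.68, was 519 kb from the edge.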

How the data were processed

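ChIP-seq peaks of Ptf1a and c-Myc were taken from 1 deposited list per library. The submitters' processing notes name MACS 1.4.1, BWA 0.5.9-r16, FastQC 0.9.4 and CASAVA 1.8, and build mm9. What each tool did, its parameters and the peak threshold: not given in the sources used here. The score of each peak is the value in the deposited lists, and its scale is not stated. The depth of both libraries is unknown, and intervals of shares are exact binomial (Clopper-Pearson) ones that treat peaks as independent.

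From these lists, members were found by midpoint, and starts were counted from 1. Shared peaks, percentiles, chains and stretch counts were computed with scipy 1.17.1, pandas 2.3.3 and numpy 2.4.6 under Python 3.11.15, and drawn with matplotlib 3.10.9. Overlap, chain and motif counting were tested on simulated data. Peaks were named by rule: all Myc peaks, all Ptf1a peaks of a window with 12 or fewer, otherwise the 8 highest and the shared ones. Others named were chosen after their values were seen. Members, gene lists and alternatives were chosen with earlier results of these data known. Protein comparisons were planned and not made. Besides the 4 listed genes without an entry in the promoter table, 1 gene is not reported here. With 1 library per factor no test was run.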

Additional observations from a re-analysis of the deposited data

How the results depend on the processing

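Over 43 values obtained with other settings, 35 stayed within 1.5 times the reported count or inside the interval of the reported median percentile, and 8 did not. For the 3 Myc peaks near Cel and the 7 in the lipase window that interval is the whole range of the peaks, so staying inside it says little. The median percentile of the Myc peaks near Cel was 7.80 as reported, 2.65 among peaks of similar width and 26.1 in the wider window. With joining distances of 5 and 25 kb, the largest Ptf1a chain of the lipase window held 5 and 16 peaks in place of 9. The 16 include 5 peaks outside the window on the left. When peaks scoring below 100 were left out, the Cel window had 0 Myc peaks in place of 3, and 0 shared Myc and 0 shared Ptf1a peaks in place of 2 each, since all 3 Myc peaks score below that limit. With the window widened by 50 kb on each side, the Cel window held 5 Myc peaks, and 4 Myc and 4 Ptf1a peaks were shared. Requiring 50% of the narrower peak, or midpoints within 500 bp, gave the reported numbers of shared peaks in both windows. The gap alternative does not apply to the TC-box alone and was run only for the paired boxes. No replicate could be left out. No paired analysis was possible because only 1 library was made with each antibody. Depth is unknown, so peaks may have been missed in either library.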
